A study of Mus musculus with 4 samples.

Results

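The tripartite motif (Trim) genes were taken as every gene of the 2 RNA tables whose symbol is Trim followed by a number and, for some, a letter from a to d. The rule found 36 of the 13792 genes listed. RefSeq holds 68 genes that match the rule, and 32 of these were not listed, so they have no values here. Statements on the family cover only the 36 listed members. These 36 were divided into 8 genes of a cluster on chromosome 7 (the Trim5, Trim12, Trim30 and Trim34 paralogs) and 28 other members. The family was selected on the ratios between these 2 libraries (those of Trim12a, Trim30d and Trim5), so its values are a description and carry no test. For both libraries, naive B cells isolated from mice of the inbred strain C57BL/6 were infected with an RVKM retrovirus and kept in culture with antibodies against IgM and CD40, in place of antigen and T cells. RVKM-Empty carried no insert and its library is called the control here. RVKM-Ascl2 carried Ascl2, a basic helix-loop-helix transcription factor gene. There was 1 library per group, so no value has a replicate error. Cells of both groups had met a retrovirus, and an uninfected group was not analysed here. The age of the mice, the time in culture and the share of infected cells were not stated in the labels. The study's 2 chromatin samples were not analysed here.

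TRIM proteins carry a RING finger, B-box zinc fingers and a coiled coil, and most act as E3 ubiquitin ligases. The C-terminal domain sets the target: many members that act on viruses carry a PRY-SPRY domain, and primate TRIM5 uses it to bind the capsid of incoming retroviruses. Interferons induce many of the genes, and TRIM proteins both raise and lower signals from RNA, DNA and Toll-like receptor sensing. In the mouse the relatives of primate TRIM5 lie side by side on chromosome 7 as recent duplicates.

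The inserted gene, Ascl2 (ENSMUSG00000009248), was 0.0809 in the control and 29.4 in the Ascl2 library, which goes with the labels. Values are the authors' abundances per gene, scaled for depth and, as far as they show, for gene length. Differences are given as log2 ratios, Ascl2 over control, after 1 was added to each value, a scale that understates the differences of low genes. A gene was kept if either library had it at 1 or above (12283 genes, 34 of them Trim members), and a log2 ratio of at least 1 in either direction counted as 2-fold. The 2 members under that limit were Trim30b and Trim36. The values summed to 750692 in the control and 763932 in the Ascl2 library, and the median log2 ratio of the kept genes was −0.01. A single cadherin gene, Pcdh15, went from 481 to 26003, and the sums without it were 750212 and 737928. The number of reads behind a value is unknown, and no counting error is given. In bulk RNA, fewer cells of a type and less RNA per cell cannot be told apart. All 8 B cell markers were listed and summed to 2595 in the control and 2381 in the Ascl2 library. Of 8 T cell markers Cd28 was listed, at 0.734 and 0.751. Of 10 myeloid markers 8 were listed, and 7 of them had a log2 ratio above 0, beside 48.4% of all kept genes. The 8 summed to 52.5 and 59.2, with Lyz2 at 16.0 and 21.4 and none listed at 0. The marker that went the other way was Cd68, the highest of the 8 in the control, at 16.2 and 10.8. Of 6 stromal or packaging-line markers 3 were listed. Col1a1 was 0.0394 and 0.492 and Col1a2 was 0.496 and 0.512, both under the limit for keeping. Vim, which B cells also express, was 223 and 176. The part of other cells in the results on Trim genes was not tested.

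**Figure D1:**
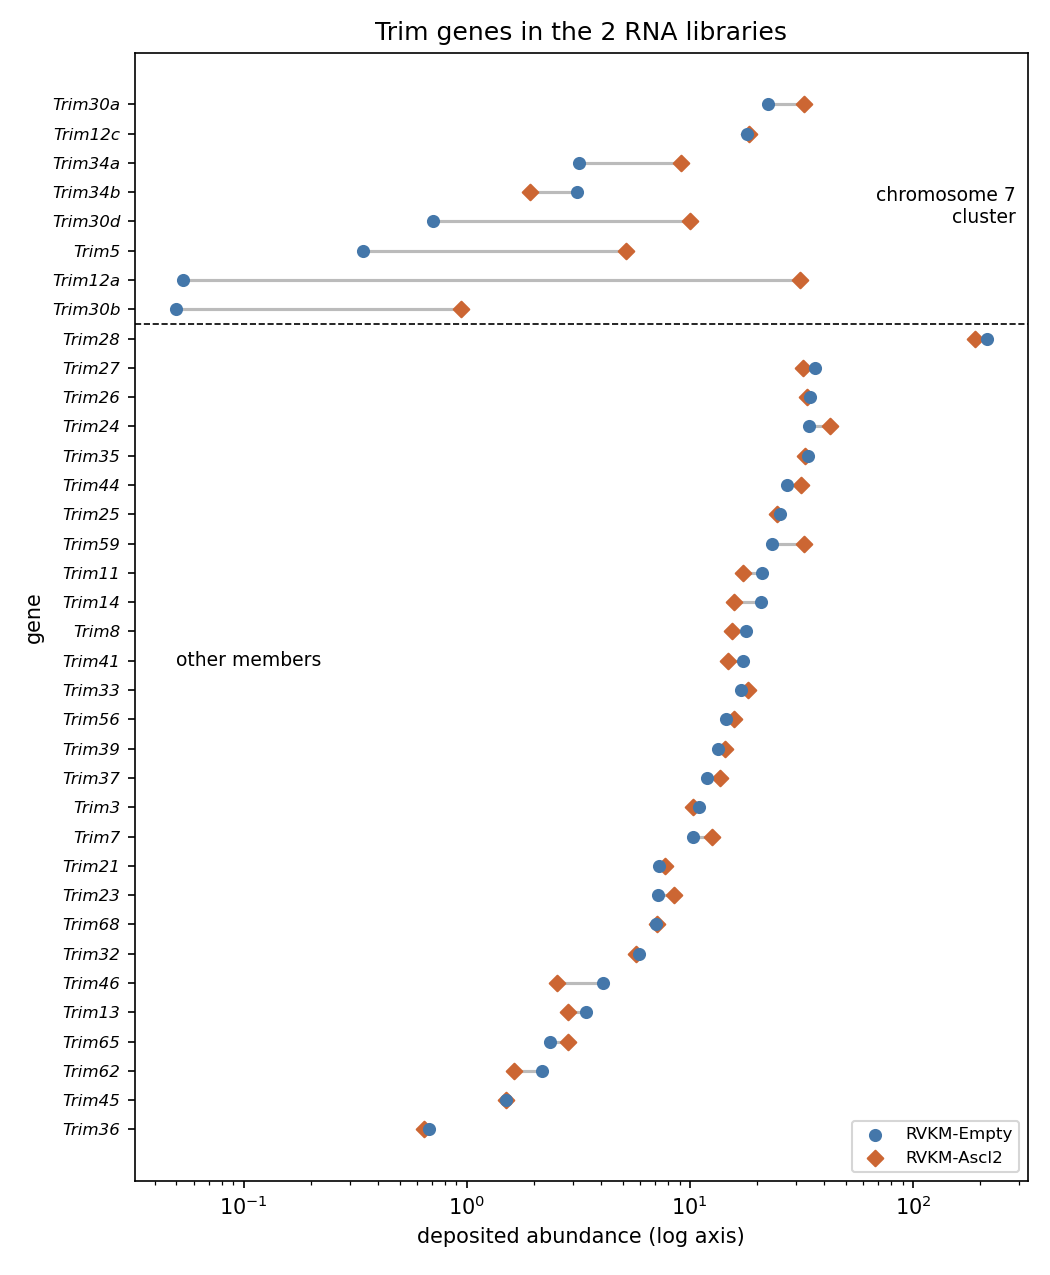
Deposited abundance of the 36 Trim genes in the control library (circles) and the Ascl2 library (diamonds), on a log axis, with a grey line joining the 2 values of a gene. In the cluster Trim12a runs from 0.0535 to 31.2, while among the other members both values of a gene lie close together.

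Every listed Trim gene past 2-fold between the libraries was in the chromosome 7 cluster. Of the 34 kept members, 4 had at least 2-fold the control value in the Ascl2 library and 0 were lower by that much, beside 1.53% and 0.716% of all kept genes. They made up 4 of 7 kept cluster genes, against 0 of 27 kept members elsewhere. The cluster's kept genes had a median log2 ratio of 1.28, the 27 others had −0.04, and all kept genes had −0.01. The count and the cluster median include Trim12a, Trim30d and Trim5, whose ratios selected the family. Those genes were under 1 in the control and were kept only through the Ascl2 library, so count and median only describe. The other kept cluster genes, Trim34a, Trim30a, Trim12c and Trim34b, had log2 ratios of 1.28, 0.52, 0.03 and −0.50. Trim34a, at 1.28, was the member nearest to the limit from above, and Trim30a, at 0.52, was the kept cluster gene nearest from below. With a pseudocount of 5 in place of 1, Trim34a and Trim5 no longer reached 2-fold and the count was 2.

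The cluster genes span 263 kb, at chr7:104244448-104507853 on GRCm38, the assembly also called mm10. They do not overlap one another in the annotation. The closest neighbours are Trim34a and Trim5, on opposite strands and 1141 bases apart. Whether the counting used strand is not given. The 9 cluster genes that RefSeq lists under these symbols include Trim30c, which has no value under that symbol in the RNA data. Nor does Trim6, next to the cluster.

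The stretches in front of the start sites show how close some of these paralogs are to one another. The 250 bases before the RefSeq start (GRCm38.p6, 5′ to 3′ on the gene's own strand) are printed for the Trim12 and Trim5 genes and for Trim30a and Trim30d. Capitals mark 2 motifs searched on both strands: GAAA, any 2 bases and GAAA again, the core of the element bound by interferon-induced factors, here called the interferon core, and CAGCTG, an E-box of the kind bound by basic helix-loop-helix factors. The windows are chr7:104315496-104315745, minus strand, for Trim12a, chr7:104353350-104353599, minus strand, for Trim12c, chr7:104288107-104288356, minus strand, for Trim5, chr7:104465194-104465443, minus strand, for Trim30a, and chr7:104507850-104508099, minus strand, for Trim30d. The last 63 bases for Trim12a and the last 148 for Trim5 lie within the RefSeq gene model, which begins before the start used, as do 9 for Trim12c and 4 for Trim30d.
Trim12a: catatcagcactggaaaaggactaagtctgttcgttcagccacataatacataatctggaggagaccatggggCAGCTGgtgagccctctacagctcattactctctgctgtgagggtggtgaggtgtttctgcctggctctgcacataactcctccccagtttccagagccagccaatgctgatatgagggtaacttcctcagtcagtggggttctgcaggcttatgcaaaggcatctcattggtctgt
Trim12c: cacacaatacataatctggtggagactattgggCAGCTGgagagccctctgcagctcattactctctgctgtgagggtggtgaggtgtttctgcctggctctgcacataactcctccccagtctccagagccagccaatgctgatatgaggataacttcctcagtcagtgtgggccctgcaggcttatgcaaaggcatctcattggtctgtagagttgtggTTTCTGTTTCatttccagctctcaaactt
Trim5: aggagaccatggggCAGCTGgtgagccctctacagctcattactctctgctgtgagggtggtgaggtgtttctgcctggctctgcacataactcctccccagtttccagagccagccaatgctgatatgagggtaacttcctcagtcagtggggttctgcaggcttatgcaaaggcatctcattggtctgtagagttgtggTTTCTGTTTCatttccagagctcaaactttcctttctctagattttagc
Trim30a: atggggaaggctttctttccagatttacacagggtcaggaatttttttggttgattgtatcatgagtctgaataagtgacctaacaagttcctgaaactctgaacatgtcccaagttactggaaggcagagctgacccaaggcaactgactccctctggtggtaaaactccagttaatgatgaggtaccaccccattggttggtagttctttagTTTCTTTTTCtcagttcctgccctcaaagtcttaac
Trim30d: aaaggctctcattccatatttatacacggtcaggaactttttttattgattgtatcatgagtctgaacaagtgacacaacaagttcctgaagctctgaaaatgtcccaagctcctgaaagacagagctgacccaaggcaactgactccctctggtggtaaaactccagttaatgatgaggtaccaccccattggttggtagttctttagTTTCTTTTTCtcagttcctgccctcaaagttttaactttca

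In a global alignment, Trim30a and Trim30d matched at 89.0% of columns, Trim12c and Trim5 at 81.1%, Trim12a and Trim12c at 69.0%, and Trim12a and Trim5 at 61.8%. The other 24 of 28 pairs, which include Trim34a with Trim34b at 47.9%, lay between 44.6% and 53.5%. The annotated starts are offset between Trim12a, Trim12c and Trim5. That offset lowers their identities, since shared stretches sit at different places in the windows. Trim12a and Trim5 have the same letters in all 191 bases where their printed windows overlap, out of 309 columns. Their 61.8% therefore comes from the offset alone, and the percentages do not rank these genes by likeness.

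The interferon core was found in 4 of the 8 cluster windows (Trim5, Trim12c, Trim30a and Trim30d), in 1 of 20 windows of other members (Trim26), and in 2.98% of all 32851 RefSeq promoter windows of that length. With the 50 bases after the start included, it was found in 6 of 8 cluster windows, adding Trim12a and Trim34a, in 2 of 20 others, adding Trim21, and in 3.44% of all. CAGCTG was found in 3 of 8 cluster windows, those of Trim12a, Trim12c and Trim5, in 3 of 20 others and in 13.0% of all. It fits the broader E-box letters CANNTG, which were in all 8 cluster windows, in 9 of 20 others and in 66.2% of all. With the same 50 bases included, CAGCTG was in 3 of 8 cluster windows, 5 of 20 others and 16.3% of all. CANNTG was then in all 8 cluster windows, 12 of 20 others and 72.3% of all. Among the others, the windows before the start of Trim27, Trim37, Trim41, Trim45, Trim46 and Trim56 lie wholly within the RefSeq gene model. Neither the interferon core nor CAGCTG was found in these, and CANNTG only in that of Trim46. The counts for cluster and others thus do not compare like stretches, and no contrast is read from them. Both motifs occurred in paralogs with a high ratio and in Trim12c, whose 2 values were alike. Since paralogs share these stretches by descent, they are not independent occurrences. A match describes the letters and not a bound site.

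Trim12a (ENSMUSG00000066258, chr7:104299893-104315558, minus strand) had the largest difference of the family. It was 0.0535 in the control and 31.2 in the Ascl2 library, a log2 ratio of 4.93. Among all kept genes that was the ratio of rank 2, next above Ascl2 itself at 4.81. In the control only 0.109% of the listed genes were at or below Trim12a, whereas in the Ascl2 library it stood at percentile 77.4 and was rank 9 of the 36 Trim genes. Its log2 ratio was 7.67 with a pseudocount of 0.1 and 2.84 with 5, because the control value is so near 0.

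Its closest namesake did not share this. Trim12c (ENSMUSG00000057143, chr7:104338754-104353358, minus strand) was 18.0 in the control and 18.4 in the Ascl2 library, a log2 ratio of 0.03. Trim12a therefore made up 0.296% of the summed Trim12 value in one library and 62.9% in the other.

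Trim5 (ENSMUSG00000060441, chr7:104263386-104288254, minus strand), named for the primate capsid-binding factor, was 0.344 in the control and 5.20 in the Ascl2 library, a log2 ratio of 2.21 at rank 19 of all kept genes. The ratio was 3.58 with a pseudocount of 0.1 and 0.93 with 5.

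The Trim30 genes all had the higher value in the Ascl2 library, by very different amounts. Trim30a (ENSMUSG00000030921, chr7:104409025-104465193, minus strand), which restrains Toll-like receptor signals, was 22.5 in the control and 32.6 in the Ascl2 library, a log2 ratio of 0.52. Trim30d (ENSMUSG00000057596, chr7:104470014-104507853, minus strand) was 0.709 and 9.99, a log2 ratio of 2.68 at rank 11 of all kept genes. Trim30b (ENSMUSG00000052749, chr7:104355398-104358646, minus strand) stayed under a value of 1 in both libraries, at 0.0495 and 0.945. Trim30b had the lowest control value of the family, and its log2 ratio of 0.89 ran from 0.24 to 2.80 with pseudocounts of 5 and 0.1.

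The Trim34 pair went opposite ways. TRIM34 is another interferon-induced member that takes part in the restriction of retroviruses in primates. Trim34a (ENSMUSG00000056144, chr7:104244448-104262244, plus strand) was 3.18 in the control and 9.16 in the Ascl2 library, a log2 ratio of 1.28 at rank 81. Trim34b (ENSMUSG00000090215, chr7:104329471-104336617, plus strand) was 3.13 and 1.92, a log2 ratio of −0.50, and it was the only cluster gene with the lower value in the Ascl2 library under each setting that kept it.

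**Figure D2:**
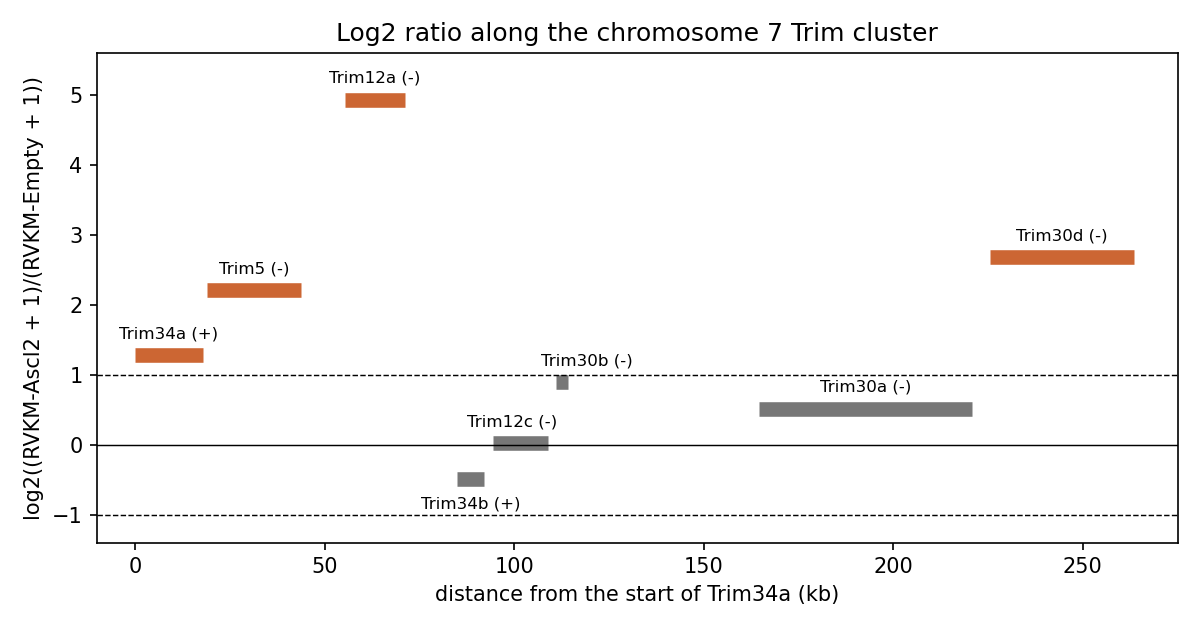
Log2 ratio of each cluster gene against its distance in kb from the start of Trim34a, each bar spanning the gene, with its strand in brackets. Orange bars are at or above the 2-fold line (dashed at 1 and −1). Trim34a, Trim5 and Trim12a at one end and Trim30d at the other are past it, while the 4 genes between them range from −0.50 to 0.89.

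Along the chromosome, Trim34a, Trim5 and Trim12a stood next to one another at one end of the cluster, and Trim30d, also past 2-fold, stood at the other end. Between them lay Trim34b, Trim12c, Trim30b and Trim30a, with log2 ratios from −0.50 to 0.89. In the 500 kb on either side, 3 further genes were listed. The adult beta globin genes Hbb-bt and Hbb-bs, known from red cells, were 3.14 and 1.19 in the control and 1.88 and 0.613 in the Ascl2 library. The predicted gene Gm5900 was 0.456 and 0.515. These 3 were lower or nearly level in the Ascl2 library. All 3 were low, and Gm5900 was under the limit for keeping. RefSeq lists 95 genes over the cluster and these flanks, so the 3 do not show where the difference ends. The other Trim genes of chromosome 7 lie outside that window and had log2 ratios of 0.08 (Trim21), 0.02 (Trim68), −0.08 (Trim3) and −0.18 (Trim28).

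Reads that match several paralogs may have been assigned to any of them, and how this was done is not stated. Sums over paralogs are less exposed to such assignment than single genes. Reads shared with a gene outside a sum, such as Trim5 for the Trim12 pair, could still move it. Trim12a and Trim12c together were 18.1 in the control and 49.5 in the Ascl2 library, a log2 ratio of 1.41. The 3 Trim30 genes together were 23.2 and 43.5 (0.88), and the 2 Trim34 genes together were 6.31 and 11.1 (0.72). The whole cluster summed to 48.0 and 109.4, a log2 ratio of 1.17 that lay between 1.11 and 1.22 with other pseudocounts and rescalings. Moving reads between members of the cluster would leave that sum about as it is, apart from their differing lengths. Of the gain of 61.4 in the cluster sum, Trim12a made up 50.7%, Trim30a 16.5%, Trim30d 15.1%, Trim34a 9.74% and Trim5 7.90%. Most of it thus comes from Trim12a, Trim30d and Trim5, whose ratios selected the family, so the sum is no separate support. A sum of this size also moves little with the pseudocount, whatever its single genes do. The cluster's share of all summed Trim values was 7.10% in the control and 15.2% in the Ascl2 library.

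**Figure D3:**
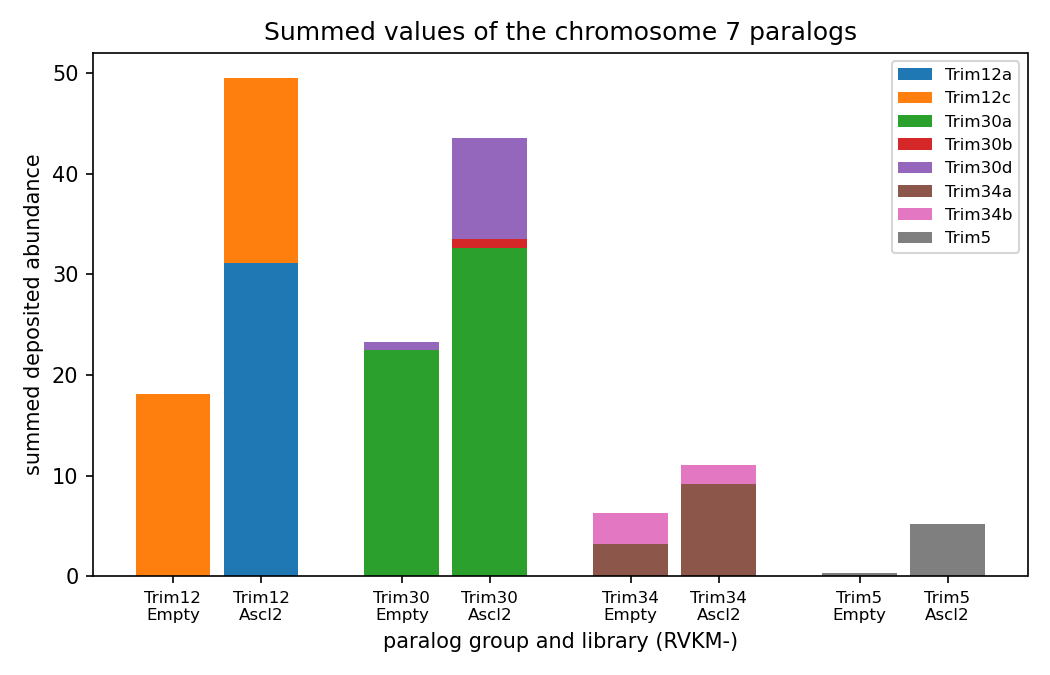
Summed deposited abundance of each paralog group in the control (Empty) and Ascl2 libraries, with each gene as a coloured block. The Trim12 sum goes from 18.1 to 49.5 with nearly all of the gain in Trim12a, whose control block of 0.0535 is too thin to see.

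Outside the cluster no kept Trim gene reached 1.5-fold on this scale, a limit that 5.01% of all kept genes passed upward and 4.31% downward. With a pseudocount of 0.1, Trim46 did, at a log2 ratio of −0.67. Of the 27 kept members 13 had a log2 ratio above 0, as 48.4% of all kept genes did, and 14 below, from −0.53 to 0.47. Their split moved to 11 and 16 when both libraries were scaled to the same sum, was 13 and 14 again when Pcdh15 was left out of the sums, and moved to 14 and 13 with scaling to the same upper quartile, so no direction is read from it. The 28 genes summed to 627 in the control and 609 in the Ascl2 library.

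The transcriptional intermediary factors, which carry a PHD finger and a bromodomain, include the Trim gene with the highest level. Trim28, the KAP1 corepressor that silences retroviral elements, ranked first in both libraries, at 215 in the control and 189 in the Ascl2 library (log2 ratio −0.18). It alone took 31.8% and 26.4% of the summed Trim values. Trim24, a coregulator of nuclear receptors, was 34.3 and 42.6 (0.30), and Trim33, known from TGF-beta signalling, was 17.0 and 18.3 (0.10). Relative to one another, Trim28 was lower and Trim24 higher in the Ascl2 library, each by less than 1.5-fold.

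The PRY-SPRY members outside the cluster that also have a RING, 12 genes as listed, had a median log2 ratio of −0.04, with 5 above 0 and 7 below. The highest were Trim27 (36.4 and 32.1), Trim26 (34.6 and 33.7) and Trim35 (33.99 and 32.8). Trim25, which acts in RIG-I signalling, was 25.4 and 24.5, and Trim21, the cytosolic antibody receptor, was 7.29 and 7.76. The cluster genes were listed with this class, and those 12 were all short of 1.5-fold. The largest ratios among these were those of Trim7 (10.4 and 12.5, log2 ratio 0.25) and Trim62 (2.19 and 1.63, −0.28), with Trim11 at 21.1 and 17.3 (−0.27).

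Among the remaining members, Trim59, which has a transmembrane segment, had the highest ratio outside the cluster, at 23.3 and 32.5 (0.47). Trim46, known from the axon initial segment of neurons, had the lowest, at 4.09 and 2.53 (−0.53). Trim14, which takes part in antiviral signalling and has a PRY-SPRY domain but no RING, was 21.0 and 15.8 (−0.39). These were the extremes of the 27 kept genes, and Trim30a in the cluster, at 0.52, was of about the same size. Trim44, also without a RING, was 27.4 and 31.7 (0.20), and the ARF-domain member Trim23 was 7.20 and 8.53 (0.22). Trim41, one of the 12 PRY-SPRY genes above, was 17.3 and 14.8 (−0.21). The NHL-repeat members Trim3 (11.01 and 10.3) and Trim32 (5.94 and 5.73) were close to level, and Trim36 was 0.680 and 0.645. Of family members that go by other names, Pml, the organiser of nuclear bodies, was 117 and 110, and Mid1, a microtubule-bound ligase, was 5.13 and 4.94.

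**Figure D4:**
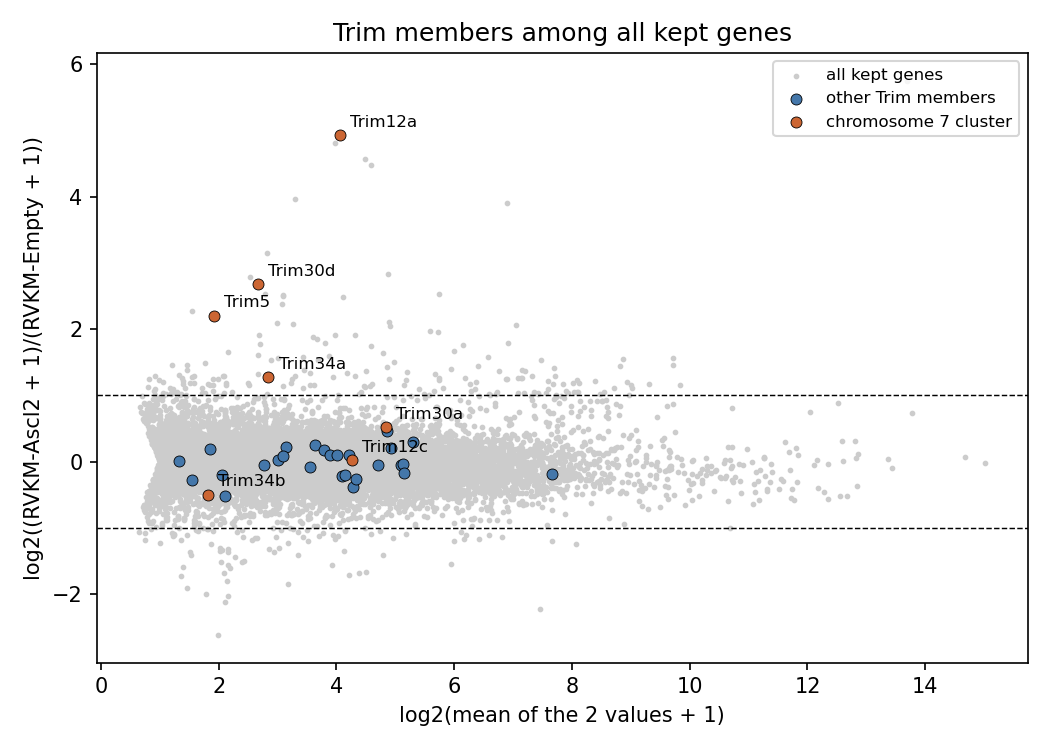
Log2 ratio against log2 of the mean value plus 1 for the 12283 kept genes (grey), the 27 kept Trim members outside the cluster (blue) and the 7 kept cluster genes (orange), with dashed lines at 2-fold. The blue points lie between −0.53 and 0.47, while Trim12a, Trim30d, Trim5 and Trim34a stand above the upper line.

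Genes that respond to interferon were looked at because many Trim genes are among them. Of 30 in the list 28 were kept and 0 were past 2-fold in either direction, beside 1.53% of all kept genes upward and 0.716% downward. At those shares a list of this length would hold few such genes or none, so nothing is read from the 0. The median log2 ratio was 0.05, beside −0.01 for all kept genes. Isg15, a ubiquitin-like modifier, was 22.9 in the control and 23.6 in the Ascl2 library. The largest ratios were those of the chemokine gene Cxcl10 (4.75 and 7.18, log2 ratio 0.51), the antiviral gene Mx2 (1.94 and 1.22, −0.41), Ifit2 (1.75 and 2.62, 0.40) and Xaf1 (9.51 and 7.09, −0.38).

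Of 28 sensing and signalling genes on which TRIM proteins act, 26 were kept, 2 passed 2-fold upward in the Ascl2 library and 0 downward, beside the same 1.53% and 0.716% of all kept genes. The median was 0.07, against −0.01 over all. Tab2, an adaptor of the kinase TAK1 that TRIM30 has been described to destabilise, was 18.4 in the control and 75.6 in the Ascl2 library (log2 ratio 1.98). Its relative Tab3 was 2.86 and 3.56 (0.24). Tlr3, the receptor for double-stranded RNA, was 0.0420 and 1.47 (1.24). It was kept only through its Ascl2 value, and both its values are low and of unknown precision. Nothing is therefore read from the count of 2. The other sensors and adaptors were closer together, among them Ddx58, which encodes RIG-I, at 15.4 and 20.6, Chuk at 21.6 and 30.3, and Mavs at 19.6 and 18.7.

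The enzymes that activate ubiquitin and hand it to RING ligases were also counted. Of 16 E1 and E2 genes 15 were kept and 0 were past 2-fold, a count from which, beside 1.53% and 0.716% of all kept genes, nothing is read. The median was −0.07, and −0.01 over all. Ube2w, which modifies the N-terminus of proteins including primate TRIM5, had the highest ratio, at 16.4 and 25.4 (0.60), and Ube2k the lowest, at 73.4 and 58.8 (−0.32). Ube2v1, at 99.3 and 81.8 (−0.28), came next.

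Of 10 genes for partners of Trim28 in gene silencing, 1 passed 2-fold upward in the Ascl2 library and 0 downward, where 1.53% and 0.716% of all kept genes did. The median was 0.13, next to −0.01 over all. It was Atf7ip, a stabiliser of the histone methyltransferase SETDB1, at 15.5 and 45.6 (log2 ratio 1.5004). Setdb1 itself was 18.1 and 20.5, Cbx5, which encodes the heterochromatin protein HP1 alpha, was 31.5 and 42.1, and Mphosph8 was 19.5 and 24.1. Hdac1 was 90.03 and 82.0 (−0.13).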

How the data were processed

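The 2 RNA libraries were grouped by sample title. Total RNA was extracted with Trizol, per the labels' protocols. The authors deposited, for each gene, a signal scaled for depth, but the name of the unit (FPKM or TPM), the quantifier and the strand setting are not stated there. The submitters' processing notes name mm10 as build and Trim Galore, Bowtie2, Picard and MACS2 as tools, without versions or roles. No listed gene was at 0 and each reached at least 0.475 in a library, as after a filter on low genes. The 36 member identifiers all matched their symbols in the reference table.

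With 1 library per group no test was run. Log2 ratios used a pseudocount of 1, a minimum value of 1 and a limit of 2-fold. The members and gene lists were chosen with earlier results of these data known. Named genes were the cluster, the highest levels and extreme ratios of other members, the listed genes within 500 kb, and the members of each list past 2-fold or with the largest ratios. A few more (such as Trim21, Trim23, Trim41, Isg15, Mavs, Tab3 and Setdb1) were named for their known roles after their values were seen. Among 1842 genes under 1.2 in both libraries, ratios of Ascl2 to control values piled up from 0.57 to 0.58 (38 genes). The median of the 20 intervals around that one was 9. The next fullest, from 1.14 to 1.16, held 31 genes in each of 2 intervals of 0.01, and no median was taken around these. Whole reads would give such steps at a control depth about 1.15 times that of the Ascl2 library. Low values are therefore less precise in the latter. Positions and promoters are RefSeq's on GRCm38.p6, and 28 members had a promoter. Windows were aligned with Biopython 1.88 (match 1, mismatch −1, gap opening −3, gap extension −1). Calculations used Python 3.11.15. The calling step was tested on simulated data with counting noise only, at an assumed depth. Changes were planted only in genes well above the control values of Trim12a, Trim30d and Trim5, so changes in low genes were not covered.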

Additional observations from a re-analysis of the deposited data

How the results depend on the processing

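Of 12 alternatives (11 chosen at the start, and a sum rescaling without Pcdh15 added after seeing the data), those that left the count of 4 Trim members at least 2-fold higher within 1.5 times were the filters, the 4 rescalings, a pseudocount of 0.1 and limits of 1.5-fold and 3-fold (3 at the last), and the count lower was 0 under each. A pseudocount of 5 gave 2. The cluster median of 1.28 was 1.496 and 0.79 with pseudocounts of 0.1 and 5, 1.09 without the filter, 1.74 with a filter of 5, 1.59 as a mean and 1.14 with paralogs summed. The filter of 5 dropped Trim34b, at 3.13 and 1.92, and kept Trim12a, Trim30d, Trim5 and Trim34a only through the Ascl2 library. The rise to 1.74 is thus made by the filter. The median of the other members, −0.04, was 0.01 with upper quartile rescaling. Over all kept genes, 188 higher and 88 lower became 370 and 220 with a pseudocount of 0.1, 103 and 20 with 5, 615 and 530 at 1.5-fold, and 41 and 15 at 3-fold. For single members, 199 of the values under pseudocounts and rescalings lay within 0.1 of the main log2 ratio and 17 did not. The sign changed for Trim68 and Trim45 with sum rescaling and for Trim26 with upper quartile rescaling. No alternative could leave out a replicate, and no paired analysis was possible because each group had 1 library. Absolute depth is unknown, so the precision of the control values of Trim12a, Trim30b, Trim5 and Trim30d, all under 1, cannot be given.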

Other observations

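Genes that were almost off in one library and on in the other were counted over all listed genes, with limits chosen after the Trim values were seen. No gene was listed at 0 in either library. The counts therefore leave out any gene with a value of 0 in one library, and cover only genes with a value in both. The 3 Trim genes named here are those whose ratios selected the family, so their place in the count is no separate observation. Below 1 in the control and at least 5 in the Ascl2 library were 8 of the 13792 genes, and 3 of them were Trim genes (Trim12a, Trim30d and Trim5). The others were Ascl2, Gdpd3, Gm1966, Gm28048 and Rbpsuh-rs3. The reverse, below 1 in the Ascl2 library and at least 5 in the control, was seen for 4 genes, Plcd3, Lyplal1, Gm14419 and Rpl35a-ps4, and no Trim gene was among them.

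Of the 8 genes, 6 had a position in the RefSeq table, each on chromosome 7. They are the 3 Trim genes, which lie in 1 cluster, Ascl2, which was also in the virus, Gdpd3 and Gm1966, so nothing is read from that number. Gm1966, at chr7:106595549-106644646, was 0.425 in the control and 11.6 in the Ascl2 library. The predicted gene Gm4759, at chr7:106421550-106441073, was 3.08 and 11.1, a log2 ratio of 1.57. In the same stretch 9130208D14Rik, at chr7:105823257-105856011, went the other way, at 3.18 and 0.580 (log2 ratio −1.404). Gdpd3, a glycerophosphodiester phosphodiesterase gene at chr7:126766414-126775645, was 0.793 and 41.8. Pycard, the inflammasome adaptor gene at chr7:127991373-127993867, was 13.1 and 29.8, a log2 ratio of 1.12. Near these, the kinase gene Sbk1, at chr7:126248397-126295016, was lower in the Ascl2 library, at 11.9 and 5.38 (−1.02).

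Over chromosome 7, leaving out immunoglobulin variable segments, 12 of 868 kept genes passed 2-fold upward in the Ascl2 library (1.38%) and 10 passed it downward (1.15%), beside 0.702% and 0.567% of 11105 kept genes with a position. Without the Trim members the chromosome had 8 of 857 higher (0.933%) and 10 lower. Chromosome 16 had a higher share, 7 of 349 (2.01%).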
